A study of Mus musculus with 6 samples.

Results

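The GABA and glutamate receptor genes of the mouse were examined in the medial ganglionic eminence (MGE), a transient ventral swelling of the embryonic forebrain where many interneurons of the cortex are born. Members were chosen by gene symbol alone, as the genes for GABA-A and GABA-B receptor subunits, for AMPA, NMDA, kainate and delta glutamate receptor subunits, and for metabotropic glutamate (mGlu) receptors. The rule found 42 of the 17794 genes in the deposited table: 16 GABA-A, 2 GABA-B, 4 AMPA, 6 NMDA, 5 kainate, 2 delta and 7 mGlu genes. Another 5 names that the rule could cover were not analysed here.

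Messenger RNA was sequenced from 3 control and 3 Rac1/Rac3 double-mutant (dmut) samples at stage E13.5, each a pool of MGEs from 3 embryos. Controls carried Rac1+/+ and Rac3+/+, and dmut embryos carried Rac1fl/fl and Rac3-/-. Both groups also carried Nkx2.1Tg(Cre), which drives recombination in cells with Nkx2-1 history, and the R26R-YFP+/- reporter. Rac3 was therefore missing from every cell of dmut embryos, whereas the floxed Rac1 could recombine only in cells where the transgene was or had been active. Rac1 and Rac3 are small GTPases that regulate the actin cytoskeleton, and the design asks how their joint loss alters gene expression in the MGE.

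Libraries held 26766556 to 34612095 total gene reads. Rac3 had 728, 647 and 532 reads in control libraries and 16, 0 and 0 in dmut libraries. Rac1, of which only part of the gene is floxed, was at 272 ± 2.77 CPM in controls and 248 ± 26.0 CPM in dmut (SD, n = 3 each), which does not check that allele. All 10 MGE lineage markers had reads in every library, and their summed level was 1603 to 1833 CPM in controls and 1681 to 2137 CPM in dmut. Their median log2 deviation from the control mean was 0.45 in dmut 1, -0.05 in dmut 2 and 0.45 in dmut 3. In controls it ran from -0.11 to 0.14. Summed pan-neuronal markers were higher in every dmut library (4296 to 4714 CPM) than in any control (3384 to 4106 CPM). The median log2 deviation of these markers from the control mean was -0.09 in dmut 1, within the control range of -0.14 to 0.12. It was 0.14 to 0.20 in the other dmut libraries. The sums therefore do not show that most pan-neuronal markers were higher in dmut 1. Red blood cell markers summed to 31910 CPM in dmut 1, against 9174 to 18634 CPM in the other 5 libraries. No gene of these marker lists passed the test between groups, and the part of these differences in the receptor values was not tested.

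GABA-A receptors are pentameric chloride channels assembled from alpha, beta, gamma and other subunits, and in immature neurons GABA acting through them often depolarises the cell because intracellular chloride is high. GABA-B receptors are obligate pairs of Gabbr1 and Gabbr2 products that signal through G proteins. AMPA, NMDA and kainate receptors are tetrameric cation channels opened by glutamate, delta receptors are their relatives that bind cerebellin family proteins, and mGlu receptors are coupled to G proteins. In migrating interneurons some of these receptors are known to respond to ambient transmitter before synapses form.

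Receptor levels in the control MGE ran from 0.0179 RPKM (Gabrr3) to 29.6 RPKM (Grik5) by the deposited values. RPKM scales reads by exon length and library size and is used here for every level compared between genes. The mean control RPKM was above 10 for 4 members, between 1 and 10 for 16 and below 1 for 22. Among those above 10 were the kainate subunit genes Grik5 and Grik3 and the GABA-B gene Gabbr1. Reads were listed in all 6 libraries for 37 members, and 5 members (Gabre, Gabrp, Gabrr2, Gabrr3 and Grin3b) were listed at 0 in at least 1 library. The smallest nonzero entry was 10 reads, so that a listed 0 stands for at most 9 reads, or 0.241 to 0.343 CPM depending on the library.

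**Figure D1:**
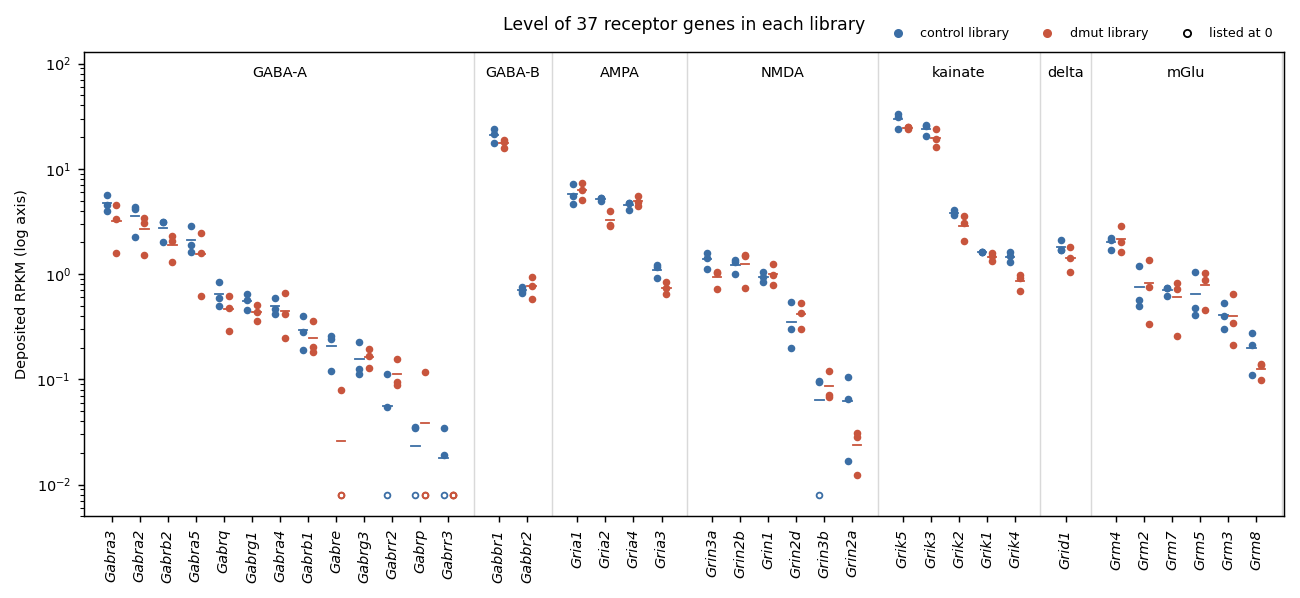
Deposited RPKM (log axis) of 37 receptor genes, grouped by receptor class and ordered within each class by the control mean. Each point is 1 library, short lines are the means of 3 libraries, and open circles at the foot mark libraries listed at 0; Grik5, Grik3 and Gabbr1 stand above 10 RPKM in controls, and the rho subunit gene Gabrr3 has no reads listed in any dmut library.

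No receptor gene passed the test between dmut and control. Of the 41 members with enough reads for testing, 0 had an adjusted p under 0.05 by edgeR's quasi-likelihood test, against 0.482% of the 15960 genes tested, 0.163% higher and 0.32% lower in dmut. The unadjusted p was under 0.05 for 2 members, Gria2 and Gria3, or 4.88%, against 21.3% of all genes. Fitted values were above 0 in 19 members and below 0 in 22. Their median log2 fold change was -0.03, and that of all genes -0.02. Over the 37 members with reads in every library the median was also -0.03, with a range from -0.65 to 0.52. Absolute log2 changes under 0.5 were found in 35 of 41 members (85.4%) and in 76.9% of all genes. The median standard error was 0.22 for members and 0.17 for all genes. The tissue was sequenced in bulk, so fewer cells of a type and less RNA per cell cannot be told apart for any gene below.

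By TMM-normalised CPM, the 3 dmut libraries lay wholly outside the control range for 5 of the 41 members (12.2%), against 28.5% of all genes. Gabre, Gria2 and Gria3 were below it, where 14.9% of all genes lay, and Gabbr2 and Gria4 above it, where 13.6% lay. DESeq2 called 1 member, Gria2, at an adjusted p under 0.05, while it called 10.2% of all genes.

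**Figure D2:**
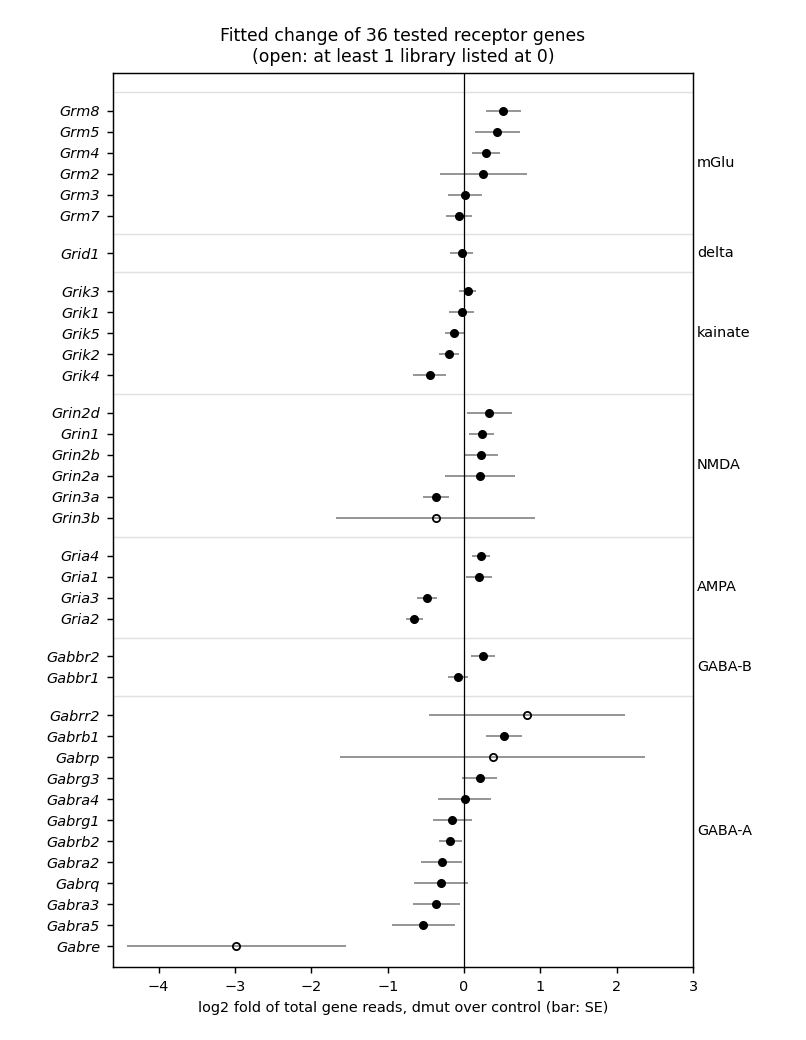
Fitted log2 fold change of total gene reads, dmut over control, for 36 of the tested receptor genes, with bars of 1 standard error; open symbols mark genes listed at 0 in at least 1 library. Gria2 and Gria3 lie at -0.65 and -0.49 with short bars, and Gabre, Gabrp, Gabrr2 and Grin3b have bars longer than those of every plotted gene with reads throughout.

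The AMPA receptor genes differed among themselves. Gria2 and Gria3 were lower in every dmut library than in any control library, and Gria4 was higher in every dmut library by TMM-normalised CPM, though not by RPKM. Gria2 encodes the subunit whose edited form makes AMPA receptors nearly impermeable to calcium, while receptors built from the other subunits admit it. Gria2 had 1934, 1905 and 1590 reads in controls and 882, 782 and 929 in dmut. This corresponded to 53.0, 50.9 and 47.3 CPM in controls and to 32.0, 28.7 and 35.4 CPM in dmut. The highest dmut library stood well below the lowest control library. The means were 50.4 ± 2.87 CPM and 32.0 ± 3.38 CPM (SD, n = 3 each), a log2 fold change of -0.65 ± 0.11 (SE) that missed the threshold with an adjusted p of 0.0620 by edgeR.

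Gria2 kept its sign in all 20 other fits, where its log2 fold change ran from -0.85 to -0.45, and its adjusted p passed 0.05 in 6 of them. The smallest adjusted p, 5.23e-05, came from DESeq2. The other 5 fits that passed were library size alone (adjusted p 0.0299, in a fit that called 4.89% of all genes), a filter of 10 or more reads in every library (0.0308, 2.84%), a mean of at least 50 reads (0.0475, 1.02%), limma-voom (0.0480, 0.796%) and the fit without dmut 2 (0.0489, 3.54%). It was 0.364 with the label date as a block, a fit in which 0 of the 15960 genes were called. The weakest Gria2 change, -0.45 (adjusted p 0.133 by edgeR), came with a trend over exon length and GC content removed. With the replicate number also as a block it was -0.46 (adjusted p 0.143).

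Gria3, on the X chromosome, was at 14.5, 14.5 and 17.4 CPM in controls and at 11.1, 11.9 and 10.1 CPM in dmut. The groups did not overlap. Its log2 fold change was -0.49 ± 0.13 with an adjusted p of 0.105 by edgeR. With the length and GC trend removed it was -0.33 (adjusted p 0.204). Gria4, which encodes the AMPA subunit typical of early forebrain and fast-spiking interneurons, was at 45.7, 41.9 and 45.7 CPM in controls and at 58.5, 46.0 and 50.8 CPM in dmut. The lowest dmut library lay just above the highest control library, and the log2 fold change was 0.22 ± 0.11 with an adjusted p of 0.326. It was 0.12 without dmut 1 and 0.02 with library size alone. In that last fit the median over all genes was -0.23, against -0.02 in the main fit. By RPKM the Gria4 groups overlapped, at 4.05, 4.72 and 4.72 in controls and 4.89, 4.47 and 5.54 in dmut. Gria1, the subunit inserted during activity-dependent potentiation, was at 42.02, 53.1 and 35.9 CPM in controls and at 43.2, 49.3 and 57.2 CPM in dmut. The Gria1 groups overlapped (log2 fold change 0.19 ± 0.17, adjusted p 0.584).

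Per exon length, Gria1 (5.79 ± 1.26 RPKM) and Gria2 (5.16 ± 0.201 RPKM) were level in controls. Gria4 followed at 4.50 ± 0.386 RPKM and Gria3 at 1.10 ± 0.168 RPKM, each below the whole range of the gene before it. By GENCODE exon lengths, the exon reads implied by RPKM were 148% of gene reads for Gria2 in controls and 74.5% for Gria1. Levels and shares compared between these genes rest on the authors' exon lengths and are approximate. The composition of the class was examined after the values were seen, and has no test. Gria2 made up 33.3%, 28.8% and 31.7% of summed AMPA gene RPKM in controls and 21.4%, 20.04% and 22.8% in dmut. Gria4 made up 25.7%, 25.7% and 30.4% in controls and 36.2%, 30.7% and 31.6% in dmut. For both genes the dmut shares lay outside the control range, Gria2 below it and Gria4 above it. The Gria3 share also lay below it, at 6.68 ± 1.07% in controls and 4.90 ± 0.778% in dmut. Shares are parts of the same sum, so a lower share of Gria2 raises the others. A change in Gria4 itself therefore cannot be read from its share. The summed AMPA RPKM itself overlapped between groups (16.5 ± 1.56 in controls, 15.2 ± 2.11 in dmut).

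**Figure D3:**
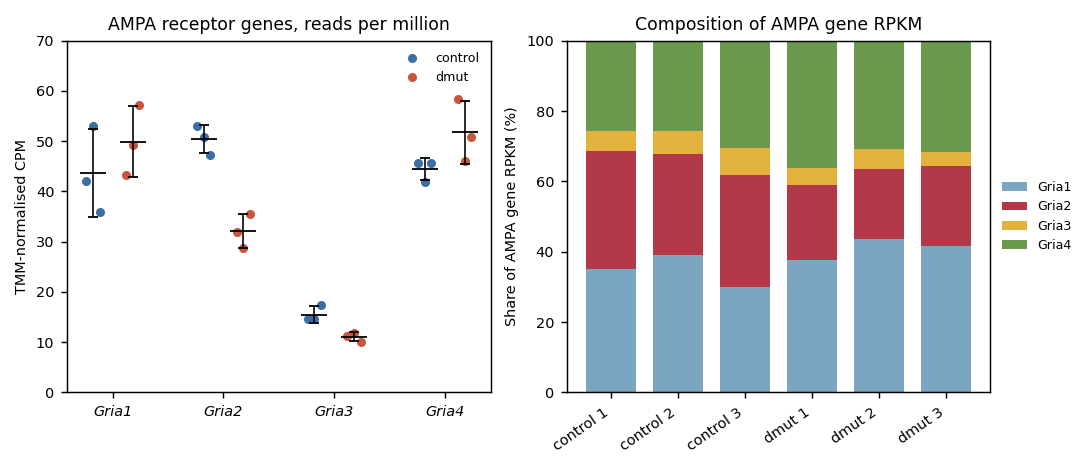
Left, TMM-normalised CPM of the 4 AMPA receptor genes in each library, with mean and SD of 3 libraries per group; right, the share of summed AMPA gene RPKM held by each gene in each library. Gria2 lies at 47.3 to 53.0 CPM in controls and 28.7 to 35.4 CPM in dmut, and its share is 28.8% to 33.3% in controls and 20.04% to 22.8% in dmut.

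In GRCm38 with the GENCODE M21 annotation, Gria2 spans chr3:80681450-80802835 on the minus strand, Gria4 chr9:4417896-4796234 on the minus strand, Gria1 chr11:57011387-57330244 on the plus strand and Gria3 chrX:41400854-41678601 on the plus strand. The promoters of the AMPA genes that lay furthest apart, Gria2 and Gria4, are shown from 250 bases before to 50 bases after the transcription start (RefSeq, GRCm38.p6), at chr3:80802786-80803085 and chr9:4796185-4796484. They are written 5′ to 3′ on the minus strand, the strand of each gene, with every CG in capitals.
Gria2: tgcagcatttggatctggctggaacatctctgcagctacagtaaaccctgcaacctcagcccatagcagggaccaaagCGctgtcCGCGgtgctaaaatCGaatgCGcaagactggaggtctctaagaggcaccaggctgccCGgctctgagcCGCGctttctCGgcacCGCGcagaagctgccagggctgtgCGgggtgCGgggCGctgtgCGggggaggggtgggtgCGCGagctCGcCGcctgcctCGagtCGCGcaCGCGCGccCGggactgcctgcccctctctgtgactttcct
Gria4: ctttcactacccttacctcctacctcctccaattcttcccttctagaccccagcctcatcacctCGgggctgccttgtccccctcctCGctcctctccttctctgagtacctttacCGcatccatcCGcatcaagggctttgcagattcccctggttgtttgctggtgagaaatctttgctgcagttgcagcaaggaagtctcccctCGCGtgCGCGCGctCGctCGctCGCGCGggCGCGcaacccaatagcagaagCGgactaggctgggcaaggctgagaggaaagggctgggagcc
The Gria2 promoter held 26 CG dinucleotides, as many or more than which were found in 16.9% of the 32851 promoters of the same length. The Gria4 promoter held 17, reached by 31.4%. The motif searched was CG, which reads the same on both strands. The median was 7 over all promoters and 12 over the 35 promoters found for 28 of the receptor genes. No measurement in these libraries reports on the promoters themselves.

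The NMDA receptor genes were expressed at low levels, and the gene for the GluN3A subunit came first among them. NMDA receptors need Grin1 together with Grin2 or Grin3 subunits, and Grin3a, abundant in young neurons, lowers their calcium permeability. In controls Grin3a (1.38 ± 0.235 RPKM), Grin2b (1.23 ± 0.195 RPKM) and the obligatory subunit gene Grin1 (0.936 ± 0.101 RPKM) had overlapping ranges. Grin2d lay below them at 0.347 ± 0.179 RPKM. Grin2a, which replaces Grin2b as the forebrain matures, was at 1.01 to 2.47 CPM over the 6 libraries.

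Grin3a was at 19.4, 20.1 and 15.2 CPM in controls and at 11.6, 15.2 and 15.6 CPM in dmut. The groups overlapped slightly, and the log2 fold change was -0.37 ± 0.17 (adjusted p 0.262 by edgeR). Its share of NMDA gene RPKM was 41.2%, 33.6% and 28.9% in controls and 26.8%, 24.8% and 24.2% in dmut, with no overlap and no test. Grin2b was at 30.3, 36.8 and 34.9 CPM in controls and at 26.5, 47.8 and 45.3 CPM in dmut. Library dmut 1 lay below all controls and the other 2 dmut libraries above them (0.23 ± 0.22, adjusted p 0.619). Grin1, at 8.83, 10.6 and 9.17 CPM in controls and 9.50, 10.9 and 13.2 CPM in dmut, overlapped between groups (0.23 ± 0.17, adjusted p 0.487). Of the Grin1 reads, 50.8% in controls and 46.3% in dmut were unique to it, and an annotated antisense gene overlaps it, so its values are uncertain. Grin3b had 0, 29 and 45 reads in controls and 17, 11 and 16 in dmut, which puts the dmut over control ratio between 0.69 and 0.77 according to what the listed 0 stands for.

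The kainate receptor genes were the most abundant glutamate receptor genes, through Grik5 and Grik3. Grik5 encodes a high-affinity subunit that needs a partner from Grik1, Grik2 or Grik3 to form a channel. In controls Grik5 (29.6 ± 4.78 RPKM) and Grik3 (24.0 ± 3.04 RPKM) overlapped, and together they held most of the class. Grik2 followed at 3.85 ± 0.209 RPKM, and Grik1 (1.63 RPKM) and Grik4 (1.47 ± 0.163 RPKM) overlapped at the bottom. Grik5 held 48.7 ± 5.77% of the class RPKM in controls and 49.99 ± 4.64% in dmut, and Grik3 39.8 ± 5.64% and 39.5 ± 4.03%. The Grik1 share was 2.70 ± 0.182% in controls and 2.96 ± 0.0779% in dmut, just above the control range and with no test.

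Grik3 was at 213, 258 and 257 CPM in controls and at 235, 244 and 273 CPM in dmut, and Grik5 at 137, 124 and 101 CPM and at 113, 109 and 108 CPM. Both pairs of groups overlapped, with log2 fold changes of 0.05 ± 0.11 (adjusted p 0.864) and -0.13 ± 0.12 (adjusted p 0.608). Grik4, the other high-affinity subunit gene, was at 13.6, 11.04 and 12.4 CPM in controls and at 11.2, 9.46 and 6.41 CPM in dmut. Its groups overlapped through dmut 1, and it had the lowest fitted value of the class (-0.45 ± 0.22, adjusted p 0.287). Summed kainate RPKM was 60.8, 64.6 and 56.1 in controls and 45.2, 48.8 and 54.9 in dmut. These sums did not overlap. By RPKM, 26.4% of all genes had every dmut library below the controls, and the median change of all genes in log2 (RPKM + 0.1) was -0.18. The class median of the fitted log2 changes in gene reads was -0.13.

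Among the delta receptor genes, Grid1 was at 17.8 ± 1.80 CPM in controls and 17.4 ± 2.69 CPM in dmut. Its groups overlapped (log2 fold change -0.03 ± 0.15, adjusted p 0.938 by edgeR).

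Among the mGlu genes, Grm4 was the most abundant per exon length. Its product belongs to the group III receptors, which inhibit adenylyl cyclase, as do those of Grm7 and Grm8. In controls Grm4 stood at 2.00 ± 0.274 RPKM, above the ranges of all other mGlu genes. Grm2, Grm7, Grm5 and Grm3 were between 0.757 and 0.410 RPKM, and Grm8 was lowest at 0.199 ± 0.0837 RPKM.

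Grm4 was at 12.2, 9.54 and 13.3 CPM in controls and at 12.1, 13.9 and 16.8 CPM in dmut, with overlap (0.29 ± 0.18, adjusted p 0.418). Grm8 was at 12.7, 14.6 and 9.23 CPM in controls and at 22.1, 14.2 and 16.02 CPM in dmut. Its groups overlapped through dmut 2 (0.51 ± 0.23, adjusted p 0.247). The value was 0.31 without dmut 1 and turned to -0.37 on log2 (RPKM + 0.1). Grm5, a group I receptor coupled to phospholipase C, was at 6.94, 10.3 and 4.88 CPM in controls and at 7.54, 11.5 and 10.9 CPM in dmut (0.43 ± 0.30, adjusted p 0.464). Grm2, a group II receptor gene, depended on 1 library. It was at 2.47, 4.76 and 2.26 CPM in controls and at 1.41, 6.89 and 2.98 CPM in dmut. Its log2 fold change was 0.25 ± 0.57, and -0.53 without dmut 2.

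The GABA-A genes covered a wide range of levels. Among those described here, Gabra3 (4.72 ± 0.869 RPKM), Gabra2 (3.59 ± 1.17 RPKM), Gabrb2 (2.76 ± 0.626 RPKM) and Gabra5 (2.12 ± 0.636 RPKM) came first in controls, each overlapping the next. A gap then led to Gabrq at 0.647 RPKM. Summed GABA-A RPKM was 29.1, 40.1 and 34.0 in controls and 18.3, 32.4 and 29.5 in dmut, with overlap through dmut 2 and dmut 3.

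Among the alpha subunit genes, Gabra3 held 41.5 ± 1.68% of the summed RPKM in controls and 37.4 ± 4.59% in dmut. Gabra2 held 31.0 ± 6.45% and 32.4 ± 1.89%. Both shares overlapped between groups.

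Gabrb2, a beta subunit gene, was at 16.4, 20.2 and 21.2 CPM in controls and at 14.98, 19.2 and 16.9 CPM in dmut. Gabra2 was at 7.37, 11.6 and 11.02 CPM in controls and at 5.48, 9.90 and 9.04 CPM in dmut. For both genes dmut 1 was the lowest of all 6 libraries and the other 2 dmut libraries lay within the control range. The log2 fold changes were -0.18 ± 0.15 (adjusted p 0.547 by edgeR) for Gabrb2 and -0.30 ± 0.27 (adjusted p 0.594) for Gabra2.

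Gabra3 was at 16.6, 22.9 and 19.4 CPM in controls and at 8.92, 22.1 and 14.7 CPM in dmut. Gabra5, whose product is found mostly outside synapses, was at 8.55, 10.1 and 6.43 CPM in controls and at 2.57, 5.98 and 8.78 CPM in dmut. Library dmut 1 was the lowest of all 6 for both genes, while dmut 2 or dmut 3 reached into the control range. The log2 fold changes were -0.36 ± 0.31 (adjusted p 0.561) for Gabra3 and -0.53 ± 0.41 (adjusted p 0.519) for Gabra5. Gabrb1 was at 11.8, 9.25 and 8.81 CPM in controls and 19.2, 12.8 and 10.8 CPM in dmut, with dmut 1 highest (0.52 ± 0.24, adjusted p 0.258). This value fell to 0.25 without dmut 1 and to 0.06 with unique reads, and it was -0.17 on log2 (RPKM + 0.1).

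Library dmut 1 was the lowest of the 3 dmut libraries in 9 of the 12 GABA-A genes with reads throughout, and dmut 2 the highest in 7. The median deviation of these 12 genes from the control mean, in log2 (CPM + 0.5), was -0.40 in dmut 1, 0.13 in dmut 2 and -0.02 in dmut 3. In the controls it was -0.07, 0.14 and -0.05. Over all 37 members with reads throughout, dmut 1 was the lowest dmut library in 20. The median deviation of the 41 tested members was -0.11 in dmut 1, 0.03 in dmut 2 and 0.07 in dmut 3. Markers of neighbouring tissue also differed between libraries, and were low in dmut 3 as well as in dmut 1. The 11 cortical excitatory markers summed to 16.4, 108 and 27.6 CPM in dmut 1, 2 and 3 and to 29.2, 59.9 and 62.7 CPM in the controls. Of these markers Neurod1, Neurog2, Slc17a7 and Bhlhe22 were listed at 0 in at least 1 library. The 10 septal, preoptic and diencephalic markers summed to 154, 462 and 147 CPM in dmut and to 197, 466 and 286 CPM in controls, with Foxd1 listed at 0 in at least 1 library. Their part in the receptor values, and that of the red blood cell markers that were highest in dmut 1, was not tested.

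**Figure D4:**
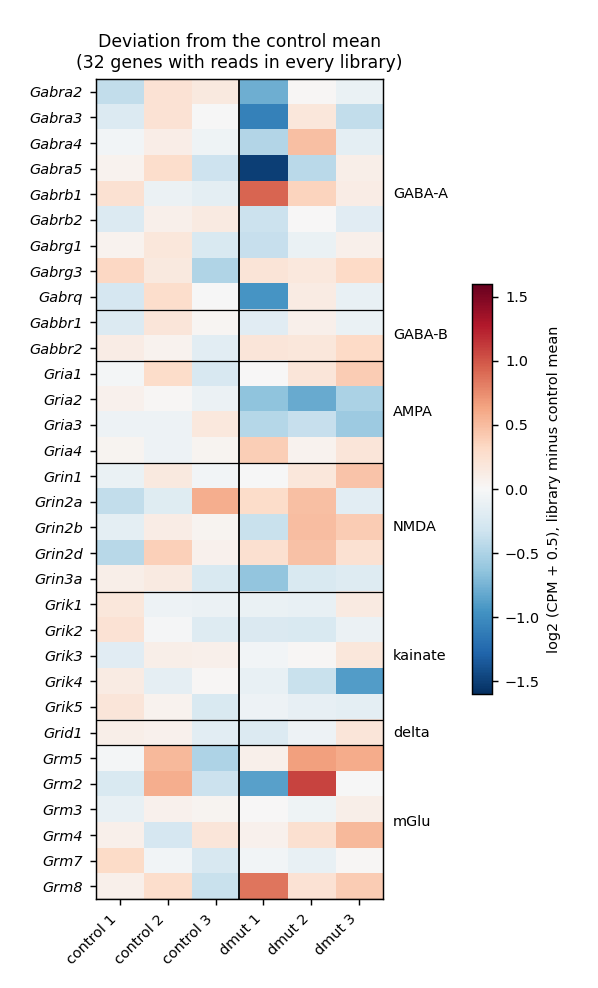
Deviation of each library from the control mean, in log2 (CPM + 0.5), for 32 receptor genes with reads in all 6 libraries, by receptor class. Gria2 and Gria3 are below the control mean in all 3 dmut libraries, whereas most of the GABA-A genes have their lowest dmut value in dmut 1, where the median over all 12 GABA-A genes with reads throughout is -0.40.

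Many GABA-A genes sit in clusters. On chr5:70751047-72149037 (Gabrg1, Gabra2, Gabra4, Gabrb1) the fitted values ran from -0.30 to 0.52, with both signs. On chrX:72255999-72842602 Gabre, Gabra3 and Gabrq were all below 0, and none of them passed the test. Gabra3 was at -0.36 and Gabrq at -0.30, while the fitted value of Gabre rests on 2 libraries listed at 0. The annotated bodies of Gabra4 and Gabrb1 overlap only at chr5:71658113-71658308, a small part of either gene, where reads may be shared.

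Gabre, the epsilon subunit gene, had 56, 59 and 29 reads in controls and 0, 0 and 13 in dmut. The groups did not overlap, and with each listed 0 counted as 9 reads the dmut mean was at least 3.45-fold lower. The fitted log2 change of -2.98 (adjusted p 0.287 by edgeR) is no measure of size, since it became -8.43 without dmut 3 and -4.47 with the date block. Gabrr3 and Gabrr2 encode rho subunits, which are best known from the retina. Gabrr3 had 0, 19 and 20 reads in controls and none listed in dmut, which was at least 1.10-fold lower, and it was too low to be tested. Gabrr2 had 16, 16 and 0 reads in controls and 16, 16 and 10 in dmut, a ratio between 1.37 and 1.79. Gabrp, the pi subunit gene, had 13, 21 and 0 reads in controls and 33, 0 and 0 in dmut, a ratio between 1.01 and 2.04.

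The GABA-B genes were unequal in level. Gabbr1, which binds GABA, was at 21.0 ± 3.17 RPKM in controls, and Gabbr2, which carries the pair to the cell surface and couples it to G proteins, at 0.70 ± 0.0503 RPKM. Gabbr1 was at 134, 179 and 160 CPM in controls and at 138, 166 and 146 CPM in dmut, with overlap (-0.07 ± 0.13, adjusted p 0.800 by edgeR). Gabbr2 was at 6.88, 6.55 and 5.54 CPM in controls and at 7.25, 7.22 and 7.97 CPM in dmut. By CPM all 3 dmut libraries lay above the controls, but the log2 fold change of 0.24 ± 0.16 did not pass the test (adjusted p 0.439). It was 0.04 with library size alone, where the median over all genes was -0.23, against -0.02 in the main fit. By RPKM the Gabbr2 groups overlapped, at 0.690, 0.656 and 0.755 in controls and 0.584, 0.769 and 0.941 in dmut. Gabbr1 held 96.7 ± 0.562% of the class RPKM in controls and 95.9 ± 0.719% in dmut, with overlap.

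Total gene reads and RPKM differed in direction for some receptor genes. RPKM was scaled by exon length and library size, without the TMM factors applied to gene reads. For some genes it also accounted for only a small part of the gene reads. An approximate share of exon reads, from RPKM and GENCODE exon lengths, was under 50% of gene reads in controls for 6 of the 37 members with reads in every library, among them Gabrb1, Gabrg3, Grm3, Grm7 and Grm8. It was under 50% for 10.6% of all 14937 genes compared, with a median of 95.6%. Grm8 had a share of 14.9% in controls and 7.70% in dmut, and Gabrb1 38.0% and 25.3%. Both had positive log2 changes in gene reads, 0.51 and 0.52, but changes of -0.37 and -0.17 in log2 (RPKM + 0.1). In Gabrb1 the unique share of reads was 44.1% in controls and 31.6% in dmut, and its fitted value with unique reads was 0.06.

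Of the same 37 members, 7 had opposite signs by the 2 measures, as did Grin3b, which has a listed 0. Among the 7, Gabrb1, Grm3 and Grm8 had exon shares under 50% in controls. Grin2a, Grik3, Grin2b and Gabra4 had shares of 67.2% to 117%. Changes in log2 (RPKM + 0.1) lay lower than those in gene reads, with a median of -0.25 for members and -0.18 for all genes. For gene reads with library size alone, without TMM factors, the medians were -0.23 for members and -0.23 for all genes. The parts of normalisation and of exon share in these differences were not tested. On RPKM 8 members had all dmut libraries below the controls (among them Gabre, Gria2, Gria3, Grin3a, Grik1, Grik2 and Grik4), and 0 had all above, against 26.4% and 4.9% of all genes. Gria2 was at 5.26, 5.29 and 4.92 RPKM in controls and at 2.89, 2.92 and 3.99 RPKM in dmut, a change of -0.66 on that scale (adjusted p 0.104 by limma, which called 0.476% of all genes and no member).

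**Figure D5:**
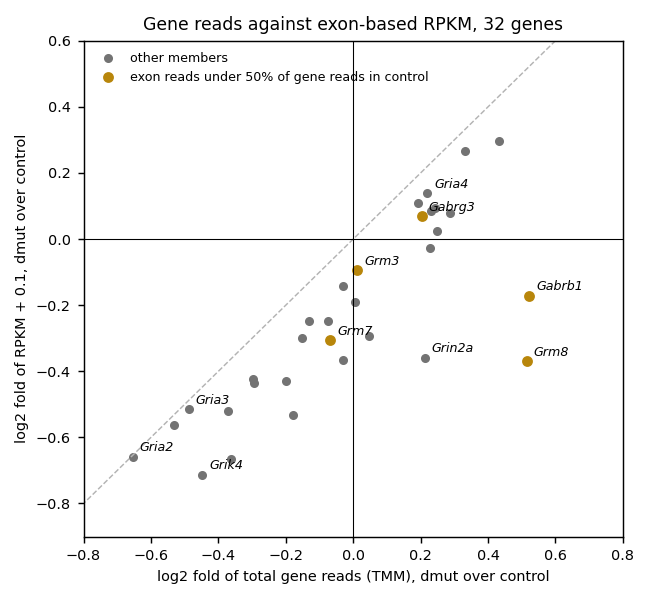
Log2 fold change of total gene reads against that of RPKM + 0.1, dmut over control, for 32 receptor genes with reads in every library; gold points have an exon read share under 50% in controls and the dashed line marks equal values. Gria2 lies on the line at -0.65 and -0.66, while Gabrb1 and Grm8 are above 0 by gene reads and below 0 by RPKM. The medians of all tested genes were -0.02 by gene reads and -0.18 by RPKM + 0.1, so equal values are not equal distances from them.

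Genes whose products accompany the receptors were read from the same fit. Of 53 such genes, 51 were in the table and were tested, and 0 passed at 0.05 (edgeR), against 0.482% of all genes. The unadjusted p was under 0.05 for 15 (29.4%, against 21.3% of all genes), 25 had fitted values above 0 and 26 below, and the median was -0.00. DESeq2 called 6 of them (among them Dlg1, Dlgap2, Gabarap, Gabarapl1 and Shisa7), against 10.2% of all genes.

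The AMPA auxiliary list had 5 of 13 values above 0, the glutamate receptor scaffold list 9 of 18 and the GABA-A scaffold and trafficking list 6 of 10. Dlg1 encodes a scaffold that binds AMPA and NMDA receptors and had the smallest p among those with lower values. It was at 55.6, 54.7 and 52.6 CPM in controls and at 40.1, 42.6 and 39.0 CPM in dmut, with no overlap (-0.42 ± 0.09, adjusted p 0.0784). Gabarapl1, a relative of the GABA-A receptor-associated protein with roles in autophagy, had the smallest p among those with higher values. It was at 69.4, 68.7 and 82.0 CPM in controls and at 101, 93.1 and 102 CPM in dmut, also with no overlap (0.43 ± 0.10, adjusted p 0.0884).

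Gphn encodes gephyrin, the scaffold of inhibitory synapses, and its reads were very unlike its RPKM. Gene reads were 2286, 2793 and 3061 CPM in controls and 4756, 10890 and 3795 CPM in dmut (1.26 ± 0.38, adjusted p 0.123). RPKM was 10.7, 11.8 and 12.9 in controls and 8.56, 10.1 and 10.8 in dmut, and exon reads were about 1.52% of Gphn gene reads in controls and 0.604% in dmut. The 2 chloride transporter genes set the direction of GABA-A currents by loading (Slc12a2) or extruding (Slc12a5) chloride. Slc12a2 was at 62.8, 78.3 and 74.99 CPM in controls and at 44.0, 55.5 and 64.1 CPM in dmut, and overlapped through dmut 3 (-0.40 ± 0.16, adjusted p 0.196). Slc12a5 was at 14.8, 17.6 and 19.7 CPM in controls and at 7.03, 14.01 and 15.2 CPM in dmut, with dmut 1 lowest (-0.53 ± 0.28, adjusted p 0.340). Gphn, Slc12a2 and Slc12a5 were chosen for mention after their values were seen.

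In the authors' deposited table every receptor gene had an adjusted p of 1. That table's adjusted p was under 0.05 for 0.871% of its 17794 genes. Its smallest unadjusted p among the receptor genes belonged to Gria2 in the authors' deposited table, with a signed fold change of -1.40 and a p of 0.425.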

How the data were processed

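Per the labels' protocols, total RNA was column-purified from each pool, messenger RNA was isolated on beads, and barcoded Ion total RNA-seq libraries were made. The submitters' processing notes name GRCm38 (mm10). For aligner, counting program and strand handling, the sources used here give nothing.

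The authors deposited counts of total and of unique gene reads, and RPKM by their exon lengths; per the file headers the table also holds the authors' p-value, adjusted p-value and signed fold change. RPKM was compared with gene reads per library total in 262 single-exon genes, using GENCODE lengths: 25 matched within 0.01 on the log2 scale in all libraries, and the median log2 difference was -0.0031, so exon shares are approximate. Of 17794 names, 93.32% matched GENCODE M21.

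Total gene reads were tested with edgeR 4.0.16 in R 4.3.3 (TMM, standard filter, quasi-likelihood, two-sided, Benjamini-Hochberg over all genes, threshold 0.05), 3 dmut against 3 control libraries without covariates. CPM are TMM-normalised, errors of log2 changes are standard errors, and RPKM were tested with limma 3.58.1 after adding 0.1. DESeq2 1.42.0, limma-voom and the settings in the closing section were alternatives. An exact permutation test of 3 against 3 cannot go below 0.1 and was not used. Each library is a separate pool of embryos, and within groups every pair differed beyond counting noise (chi-square divided by its degrees of freedom, 26.6 to 150.1). The steps were tested on simulated counts.

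The members and lists were chosen with earlier results of these data known. Named genes are, in each class, the 2 most abundant, those with the smallest p in each direction, those listed at 0 in a group and those whose groups do not overlap; others were named after their values were seen. Several genes of the table that this rule or the lists cover are not reported here.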

Additional observations from a re-analysis of the deposited data

How the results depend on the processing

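With a few libraries per group, counts over all genes moved widely while those over receptor genes stayed small. Against 77 genes called (33.8% higher in dmut), edgeR called 780 with library size alone (6.67% higher), 401 among genes with 10 reads in all libraries (52.1% higher), 135 with a mean of 50 reads, 227 with the replicate number as a block (62.1% higher), 0 with the label date as a block (control 1 alone has its date), 34 without the length and GC trend, 11 with that and the replicate block, and 1065 at an adjusted p of 0.1. DESeq2 called 1783 (56.2% higher), limma-voom 127 and limma on log2 (RPKM + 1) 49 (26.5% higher). Leaving out 1 library gave 2 to 585 calls, the most without dmut 2 (68.2% higher).

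Receptor genes called numbered 0, and 1 (Gria2) by DESeq2, by limma-voom, with 10 reads in all libraries, with a mean of 50 reads, without dmut 2 and at an adjusted p of 0.1. They numbered 2 (Gria2, Gria3) with library size alone, and 0 to 1 with 1 library left out. Receptor-associated genes called numbered 6 by DESeq2, 1 with library size alone, 3 at an adjusted p of 0.1, and 0 with any 1 library left out. The receptor median of -0.03 became 0.0716 without the length and GC trend, -0.23 with library size alone (-0.23 for all genes) and -0.25 on log2 (RPKM + 0.1), and ran from -0.09 to 0.01 with 1 library left out. Among 376 values of 18 named genes, 352 kept their direction and 24, all uncalled, reversed. The cause was not tested. For each gene these values include that at an adjusted p of 0.1, which repeats the main fit and cannot reverse.

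Reversed log2 changes, with the replicate block added second where given: without the length and GC trend, Gabbr1 0.001 and 0.0078, and Grid1 0.0344 and 0.0297. On log2 (RPKM + 0.1) and (RPKM + 1), Gabrb1 gave -0.1719 and -0.0496, Grin2b -0.0284 and -0.0033, Grik3 -0.2935 and -0.2813, Grm8 -0.3698 and -0.0888. With the date block, Grik3 was at -0.0257 and Grid1 at 0.027. With library size alone, Gria1 was at -0.009 and Grik3 at -0.1527. With unique reads, Grik3 was at -0.0335. With 1 library left out, Gabbr1 ran from -0.1789 to 0.0234, Grik3 from -0.0402 to 0.0937, Grid1 from -0.1657 to 0.0612 and Grm2 from -0.5291 to 0.6681.

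Same-numbered samples correlated at 0.17, 0.227 and 0.016, and differently numbered samples at -0.232 to 0.056. These values do not settle whether the numbers pair the samples. The replicate block changed no call of a receptor or receptor-associated gene. RLE size factors and no filter on low counts moved no count past 1.5 times. Depth limits Gabre, Gabrp, Gabrr2, Gabrr3 and Grin3b, where a listed 0 hides up to 9 reads.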
